A study of Mus musculus with 6 samples.

Results

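The mitochondrial ribosomal proteins were the genes whose symbol begins with Mrpl or Mrps followed by a number, listed in all 6 libraries. They numbered 78 of 22672 listed genes, 49 with a large subunit symbol (Mrpl) and 29 with a small subunit symbol (Mrps). RNA was measured by sequencing in BV2 cells, an immortalized mouse microglial line, in 3 libraries labelled shNumb-ctr and 3 labelled shscr-ctr. The prefix sh is the usual shorthand for a short hairpin RNA and scr for a scrambled sequence, but the labels spell out neither, and they do not say what ctr stands for, whether a line is a single clone, or how long cells were grown. No treatment, strain, age or second allele is given for either group. The question of the comparison was how levels of these genes in libraries labelled shNumb-ctr stood against those in libraries labelled shscr-ctr. The 3 samples of a group are not said to be separate cultures, so a p-value below speaks of the variation among these libraries alone, and that variation could be technical.

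Mitochondria carry ribosomes of their own, which translate the few messages encoded by mitochondrial DNA, all of them for subunits of the respiratory chain and the ATP synthase. Every protein of these ribosomes is encoded in the nucleus, made in the cytosol and imported. Some descend from bacterial ribosomal proteins and others are found only in mitochondria, where they fill space that ribosomal RNA takes up in bacteria. The large subunit forms peptide bonds and opens into the exit tunnel at the inner membrane, and the small subunit binds the messenger RNA and reads its codons.

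Levels are given in FPKM (fragments scaled to transcript length and library depth), the unit the deposited values were taken to have, and the depth behind them is unknown. They summed to between 451077 and 455561 per library, with 13513 to 13823 genes above 0. Correlations of log2 values ran between 0.993 and 0.995 among libraries of a group and between 0.990 and 0.992 across groups. Numb, the gene the shNumb label names, had 38.0, 37.2 and 40.0 FPKM in the libraries labelled shNumb-ctr, against 35.8, 36.7 and 36.1 FPKM in those labelled shscr-ctr. It was not lower in shNumb-ctr: the log2 fold change was 0.08, with an adjusted p of 0.137, so the groups are called by their labels throughout. All 10 markers of microglia and macrophages were above 0 in at least 1 library, with summed levels of 964 to 1048 FPKM in shNumb-ctr and 947 to 961 FPKM in shscr-ctr, although P2ry12 and Tmem119 were low, at no more than 1.09 and 2.02 FPKM in any library. Itgam, Cx3cr1 and Cd68 were called higher and Spi1 and Csf1r lower; 72.2% of the 50-base windows of the Itgam transcript also occur in another gene, so its value is uncertain. Markers of astrocytes, neurons, oligodendrocytes, endothelium and fibroblasts summed to at most 2.37 FPKM per list in any library, with 4 of 5 astrocyte markers (Gfap, Aqp4, Slc1a3, Aldh1l1) and 4 of 5 neuron markers (Rbfox3, Snap25, Syt1, Map2) listed at 0 throughout. The part of these shifts in the results below was not tested. In bulk RNA, a smaller number of cells with a given RNA content and less RNA per cell cannot be told apart.

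Most mitochondrial ribosomal protein genes had nearly the same level in both groups, and those that changed did so in both directions and by little. A gene was called where limma's two-sided test on log2(FPKM + 1), adjusted by Benjamini-Hochberg over all 10594 tested genes, gave a p under 0.05. By that rule 16 of 78 members were called, 20.5%, while 18.8% of all tested genes were called. Mitochondrial ribosomal proteins called higher in shNumb-ctr numbered 6, against a background of 8.11% of tested genes, and those called lower numbered 10, against 10.7%. The shares of members called stood near the background of all tested genes in both directions. Among the 8596 tested genes within the members' range of levels, 19.0% were called. Their median level was 14.5 FPKM, against 31.2 FPKM for members. The share called rose with level, from 13.2% of tested genes under 20 FPKM to 27.1% of those at 20 to 100 FPKM. The members' median log2 fold change was -0.03 (quartiles -0.11 and 0.02), with a median of -0.02 over all tested genes. Groups did not overlap for 26 members (39.9% of all tested genes did so), with 9 higher in shNumb-ctr (16.3% of all tested genes) and 17 lower (23.6% of all tested genes).

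**Figure D1:**
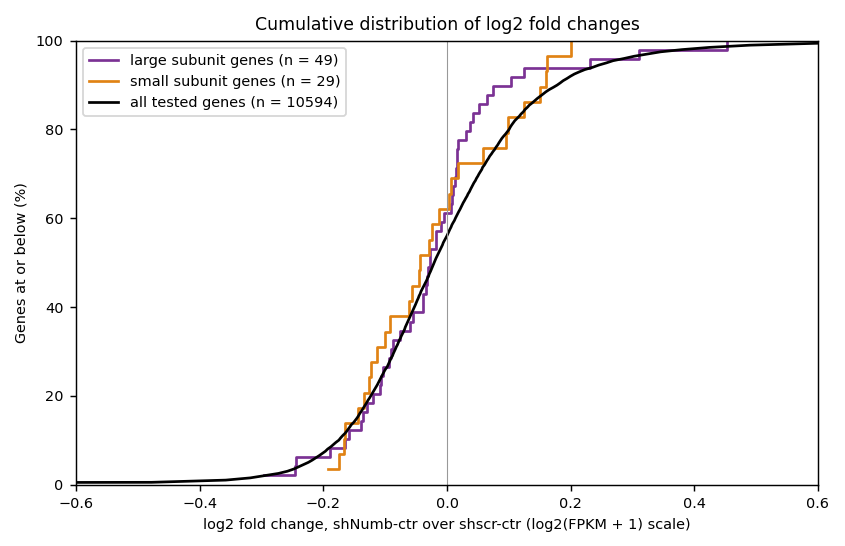
Cumulative share of genes (vertical axis, percent) by log2 fold change of shNumb-ctr over shscr-ctr (horizontal axis, log2(FPKM + 1) scale) for 49 large subunit genes, 29 small subunit genes and all 10594 tested genes. The curves run close together around the median, -0.03 for large subunit genes, -0.04 for small subunit genes and -0.02 for all tested genes.

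The large subunit held 3 genes called higher and 5 called lower of 49 (16.3%), with a median log2 fold change of -0.03. The small subunit held 3 called higher and 5 called lower of 29 (27.6%), with a median of -0.04. Of all tested genes 18.8% were called, and of those at 20 to 100 FPKM 27.1%. Median levels of both subunits lay in that range (33.7 FPKM large, 30.5 FPKM small). The small subunit count was lower in every run without 1 library: it was 6 without shNumb-ctr 2, 4 without shscr-ctr 1 or without shscr-ctr 2, 2 without shscr-ctr 3 or without shNumb-ctr 1, and 3 without shNumb-ctr 3. The large subunit count stayed between 6 and 8 in the same runs. With a GC and length correction, given at the end, the shares called in the subunits lay close together. Whether the share called differs between the subunits was not tested. Summed over members, large subunit levels came to 1866, 1926 and 1926 FPKM in shNumb-ctr, against 1974, 1964 and 1943 FPKM in shscr-ctr. Small subunit levels summed to 931, 953 and 945 FPKM in shNumb-ctr, against 963, 941 and 954 FPKM in shscr-ctr. The large subunit sums were all lower in shNumb-ctr without overlap, by a fold of 0.972, while the small subunit sums overlapped. The nearest large subunit sums were 1926 and 1943 FPKM. Of all single tested genes, 39.9% did not overlap between groups either. All sums were taken on the values as deposited, without rescaling, and genes of high level weigh most in them. With 3 against 3 libraries, an exact two-sided permutation test cannot go below 0.10, so no p is given for these sums.

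Levels spread widely within the family although its proteins are built into ribosomes in fixed numbers. The transcript lengths used to scale them are not known, and a level compared between genes depends on that length. How much of the spread comes from it was not tested. The highest large subunit levels belonged to Mrpl24, a protein near the exit tunnel, with 97.5 ± 1.83 FPKM in shNumb-ctr and 100.2 ± 4.55 FPKM in shscr-ctr (SD, n = 3 each, as for every mean that follows). Mrpl20 came next, and Mrpl30, with 89.8 ± 2.06 FPKM in shNumb-ctr and 91.8 ± 0.0281 FPKM in shscr-ctr, was the third. In shNumb-ctr the libraries of Mrpl20 and Mrpl30 overlapped and those of Mrpl24 lay above both, while in shscr-ctr the libraries of Mrpl20 and Mrpl24 overlapped and those of Mrpl30 lay below both. The lowest were Mrpl35, with 8.55 ± 0.235 FPKM in shNumb-ctr and 8.49 ± 0.395 FPKM in shscr-ctr, and Mrpl47, with 3.04 ± 0.111 FPKM in shNumb-ctr and 3.10 ± 0.119 FPKM in shscr-ctr. In the small subunit Mrps21, the mitochondrial homologue of a bacterial small subunit protein, had 93.0 ± 0.829 FPKM in shNumb-ctr and 96.9 ± 3.74 FPKM in shscr-ctr. Mrps18a was next, followed at a distance by Mrps18b, with 60.1 ± 2.78 FPKM in shNumb-ctr and 61.1 ± 2.05 FPKM in shscr-ctr. At the low end stood Mrps16, with 7.70 ± 0.0779 FPKM in shNumb-ctr and 7.15 ± 0.227 FPKM in shscr-ctr, and Mrps25, with 5.13 ± 0.305 FPKM in shNumb-ctr and 5.68 ± 0.346 FPKM in shscr-ctr. None of these differences between groups was called, other than those of Mrpl20 and Mrps18a. Levels of Mrpl24, Mrps18b and Mrps25 are uncertain, because 37.2%, 63.1% and 73.8% of the 50-base windows along their longest transcripts also occur in another gene.

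**Figure D2:**
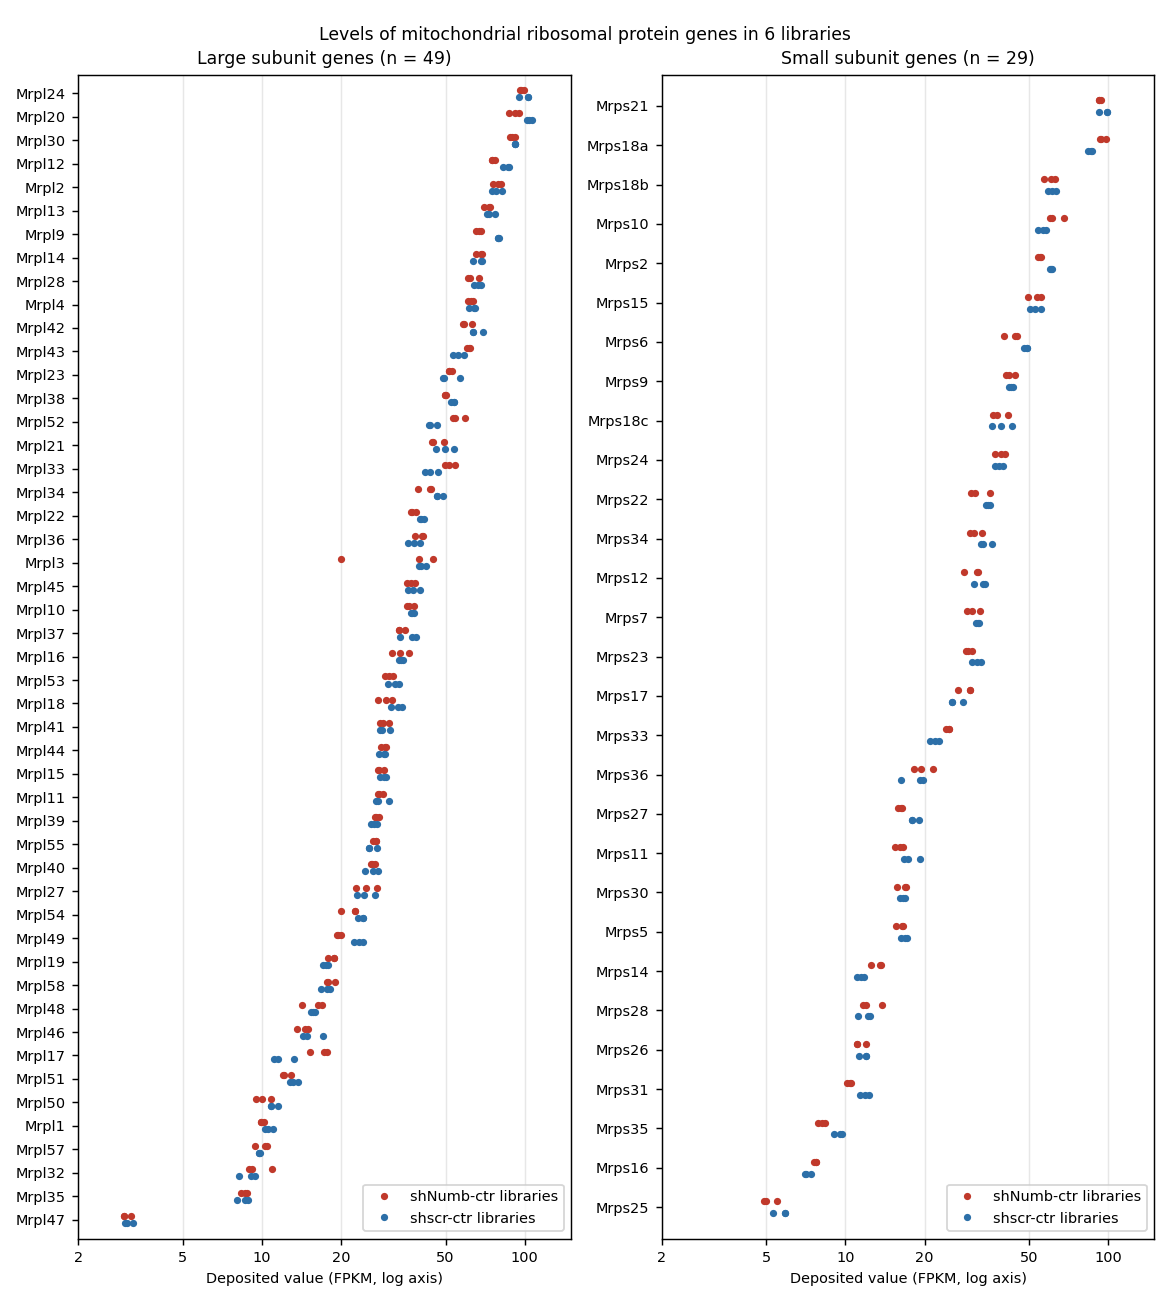
FPKM of each mitochondrial ribosomal protein gene in each library (horizontal log axis), shNumb-ctr points above shscr-ctr points, with genes in order of mean level. Group points of a gene lie close together from Mrpl47 at about 3 FPKM up to Mrpl24 near 100 FPKM, and Mrpl3 has 1 shNumb-ctr library at 19.9 FPKM, apart from its other points.

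The start regions of 6 called members are shown here, chosen after the values and the motifs in these regions were seen. Each runs from 250 bases before to 50 bases after the annotated start (RefSeq, GRCm38.p6), is printed on the gene's own strand, and has in capitals the letters of motifs known for transcription factors that act at mitochondrial genes in other studies of human and mouse cells. Mrpl17 (chr7:105811038-105811337, minus strand), Mrpl52 (chr14:54426659-54426958, plus strand) and Mrps18a (chr17:46110754-46111053, plus strand) were called higher with the smallest adjusted p. Mrpl9 (chr3:94443086-94443385, plus strand) and Mrpl49 (chr19:6057706-6058005, minus strand) were called lower with the smallest adjusted p, and Mrps27 (chr13:99344536-99344835, plus strand) was the one gene called lower whose region held the ETS letters.
Mrpl17: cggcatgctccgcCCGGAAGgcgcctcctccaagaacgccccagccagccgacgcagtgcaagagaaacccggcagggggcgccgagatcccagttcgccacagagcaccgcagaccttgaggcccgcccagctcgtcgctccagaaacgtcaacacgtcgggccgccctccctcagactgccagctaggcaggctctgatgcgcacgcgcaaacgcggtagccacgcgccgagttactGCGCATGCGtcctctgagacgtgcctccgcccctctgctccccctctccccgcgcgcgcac
Mrpl52: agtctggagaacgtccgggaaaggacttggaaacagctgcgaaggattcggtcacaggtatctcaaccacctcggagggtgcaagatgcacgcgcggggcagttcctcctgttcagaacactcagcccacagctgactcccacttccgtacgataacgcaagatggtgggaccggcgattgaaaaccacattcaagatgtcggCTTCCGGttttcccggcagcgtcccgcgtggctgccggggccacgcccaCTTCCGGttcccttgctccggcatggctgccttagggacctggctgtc
Mrps18a: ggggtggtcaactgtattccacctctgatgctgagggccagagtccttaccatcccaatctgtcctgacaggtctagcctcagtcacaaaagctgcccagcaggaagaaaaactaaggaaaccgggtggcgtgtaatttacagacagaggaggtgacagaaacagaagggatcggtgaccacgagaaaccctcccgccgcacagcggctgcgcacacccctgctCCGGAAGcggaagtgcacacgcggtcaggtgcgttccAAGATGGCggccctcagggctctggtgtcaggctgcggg
Mrpl9: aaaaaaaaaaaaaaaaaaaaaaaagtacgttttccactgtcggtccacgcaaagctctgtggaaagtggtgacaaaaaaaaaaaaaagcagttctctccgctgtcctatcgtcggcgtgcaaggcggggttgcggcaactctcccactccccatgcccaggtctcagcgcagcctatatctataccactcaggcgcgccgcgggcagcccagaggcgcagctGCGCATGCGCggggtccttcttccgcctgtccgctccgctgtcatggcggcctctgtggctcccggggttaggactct
Mrpl49: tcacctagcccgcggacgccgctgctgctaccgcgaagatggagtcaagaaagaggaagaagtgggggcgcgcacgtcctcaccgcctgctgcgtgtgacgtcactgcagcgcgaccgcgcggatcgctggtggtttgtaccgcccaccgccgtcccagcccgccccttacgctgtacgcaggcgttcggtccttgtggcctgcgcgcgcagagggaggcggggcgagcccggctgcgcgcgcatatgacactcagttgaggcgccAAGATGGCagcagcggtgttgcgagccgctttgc
Mrps27: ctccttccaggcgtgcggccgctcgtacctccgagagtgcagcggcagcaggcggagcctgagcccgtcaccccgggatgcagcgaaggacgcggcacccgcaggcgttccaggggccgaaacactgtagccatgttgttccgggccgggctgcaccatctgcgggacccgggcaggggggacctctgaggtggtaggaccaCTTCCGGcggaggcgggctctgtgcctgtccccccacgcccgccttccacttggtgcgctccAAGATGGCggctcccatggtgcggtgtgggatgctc

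Motifs were searched as exact letters on both strands: GCGCATGCG for NRF1 (nuclear respiratory factor), CCGGAAG for ETS factors such as GABPA, and AAGATGGC for YY1. A match is only a run of letters, and no match says nothing about the factor. Mrpl17 had the ETS letters at -237 and the NRF1 letters at -11, counted from the annotated start as 0 with upstream bases negative. Mrpl52 held the ETS letters at -47 and again at 2, both on the other strand, and Mrps18a held ETS letters at -26 and YY1 letters at 11. In Mrpl9, NRF1 letters on both strands overlapped at -28 and -27, in Mrpl49 YY1 letters lay at 16, and in Mrps27 ETS letters lay at -48 and YY1 letters at 14.

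Start regions were at hand for 69 of the 78 members. The ETS letters occurred in 36.2% of these members (25), against 20.8% of the 8267 tested genes with a region and 9.12% of all 27025 regions of that length. NRF1 letters occurred in 10.1% of members, against 4.31% of tested genes, and YY1 letters in 17.4% of members, against 5.42% of tested genes. At least 1 of the 3 motifs was found in 53.6% of members, against 28.2% of tested genes. Among members with a region it was found in 5 of 6 called higher, 3 of 8 called lower and 29 of 55 not called. Over all tested genes the shares were 19.4%, 29.2% and 28.9%. All 6 regions printed above hold at least 1 motif, so they do not stand for called members that hold none. The palindrome CACGTG (E-box) occurred in 7.25% of members, against 10.7% of tested genes and 7.24% of all regions. TATAAA occurred in 5.80% of members, against 6.31% of tested genes and 14.2% of all regions. ETS letters stood in 5 of 6 members called higher (Mrpl17, Mrpl52, Mrpl33, Mrps18a and Mrps33, but not Mrps14), in 1 of 8 members called lower, and in 19 of 55 members not called. Over all tested genes the order was the other way, with 14.8% of those called higher, 21.3% of those called lower and 21.3% of those not called. The split by direction was seen after the values and was not tested. Median GC content was 58.3% in the members' regions and 61.0% in those of tested genes.

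In the large subunit 3 genes were higher in shNumb-ctr, and they had the largest positive log2 fold changes of the family. Mrpl17, the homologue of a bacterial protein placed at the exit tunnel, had 17.7, 15.3 and 17.3 FPKM in shNumb-ctr, against 13.2, 11.1 and 11.5 FPKM in shscr-ctr. All shNumb-ctr libraries lay above all shscr-ctr libraries, with a fold of 1.40, a log2 fold change of 0.45 (SE 0.0751) and an adjusted p of 0.00708. Mrpl17 was the one member whose fold of means passed 1.25 either way. Mrpl52, a protein found only in mitochondrial ribosomes, had 53.3, 59.1 and 54.1 FPKM in shNumb-ctr, against 43.4, 46.5 and 43.7 FPKM in shscr-ctr. Again the groups did not overlap, and the log2 fold change was 0.31 (SE 0.0470, adjusted p 0.00509). Mrpl33, the homologue of a small bacterial protein near the tRNA exit site, had 49.9, 54.2 and 51.6 FPKM in shNumb-ctr, against 43.7, 41.8 and 46.7 FPKM in shscr-ctr. Its log2 fold change of 0.23 had an adjusted p of 0.0154, and the call was lost without shscr-ctr 1 (adjusted p 0.0516). The calls of Mrpl17 and Mrpl52 held in all 16 alternative settings, with adjusted p up to 0.0294 and 0.0233.

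In the same subunit 5 genes were lower in shNumb-ctr. Mrpl9, a homologue of a bacterial large subunit protein, had the smallest adjusted p of the family, with 65.3, 68.1 and 67.0 FPKM in shNumb-ctr, against 79.9, 79.0 and 79.3 FPKM in shscr-ctr. The groups lay far apart relative to their spread, with means of 66.8 ± 1.43 FPKM in shNumb-ctr and 79.4 ± 0.476 FPKM in shscr-ctr, a log2 fold change of -0.25 (SE 0.0278) and an adjusted p of 0.00169. Mrpl49, a mitochondria-specific protein, had 19.3, 19.9 and 19.4 FPKM in shNumb-ctr, against 24.2, 22.5 and 23.4 FPKM in shscr-ctr. Its log2 fold change was -0.24 (adjusted p 0.00596), and every shNumb-ctr library lay below every shscr-ctr library. Mrpl12 forms the flexible stalk that recruits translation factors, and in human cells it also binds the mitochondrial RNA polymerase. It had 75.03, 77.4 and 75.3 FPKM in shNumb-ctr, against 86.8, 82.8 and 86.2 FPKM in shscr-ctr, a log2 fold change of -0.17 (adjusted p 0.00979). Mrpl20, whose bacterial homologue binds ribosomal RNA early in assembly, had 87.1, 95.3 and 91.9 FPKM in shNumb-ctr, against 107, 104 and 102 FPKM in shscr-ctr. Without overlap between groups, its log2 fold change was -0.19 (adjusted p 0.0129). These 4 calls also held in all 16 alternatives, that of Mrpl20 with adjusted p up to 0.0490. Mrpl38, a mitochondria-specific protein of the central protuberance, had 49.95, 49.9 and 49.7 FPKM in shNumb-ctr, against 53.6, 53.8 and 52.4 FPKM in shscr-ctr. Its log2 fold change of -0.09 passed narrowly (adjusted p 0.0487) and was lost in 12 of the 16 alternatives, among them all runs without 1 library, where adjusted p lay between 0.0794 and 0.134.

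**Figure D3:**
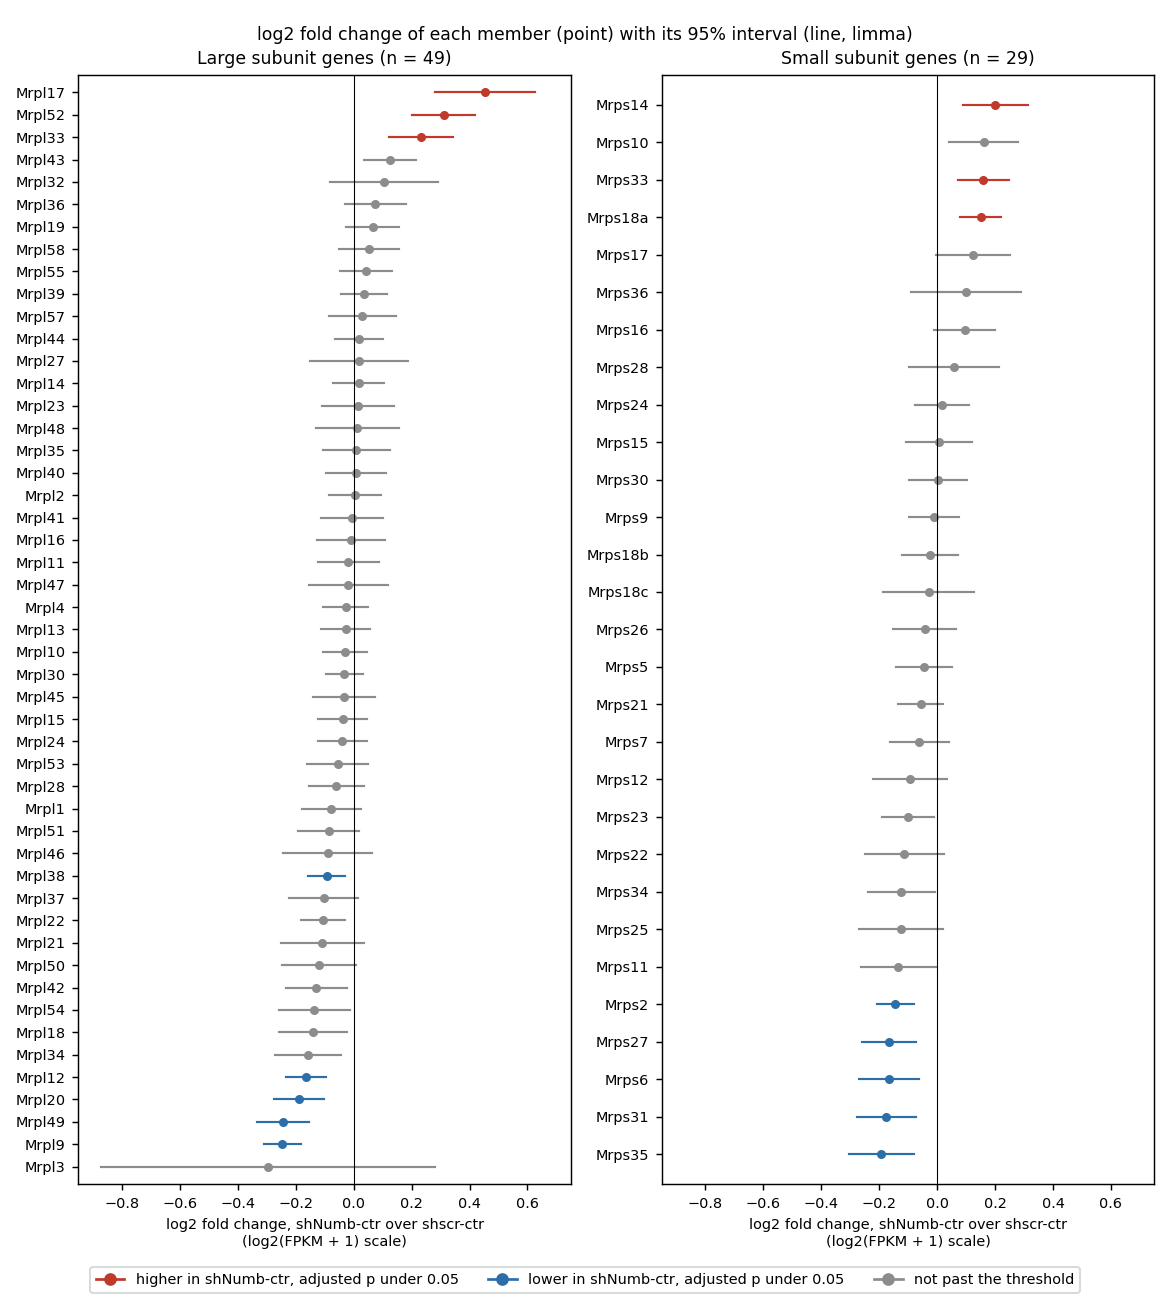
log2 fold change of shNumb-ctr over shscr-ctr (horizontal axis, log2(FPKM + 1) scale) with its 95% interval from limma for each of 49 large and 29 small subunit genes, coloured by call. Mrpl17 stands farthest to the right at 0.45, Mrpl9 and Mrpl49 lie near -0.25, and the interval of Mrpl3, from -0.87 to 0.28, is the widest.

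Among small subunit symbols, 3 genes were higher in shNumb-ctr. Mrps18a had 93.4, 94.1 and 98.4 FPKM in shNumb-ctr, against 87.0, 86.3 and 84.0 FPKM in shscr-ctr, a log2 fold change of 0.15 (adjusted p 0.0151). Despite its symbol, structures of mammalian mitochondrial ribosomes place the Mrps18a protein in the large subunit. Its groups did not overlap, and the call was lost without shscr-ctr 3 (adjusted p 0.0528). Mrps33, a mitochondria-specific protein, had 24.7, 24.1 and 24.8 FPKM in shNumb-ctr, against 22.6, 22.0 and 21.0 FPKM in shscr-ctr, a log2 fold change of 0.16 (adjusted p 0.0251). That value is uncertain, since 20.8% of its transcript windows also occur in another gene. The call was lost in 7 of the 16 alternatives, among them the GC and length correction (adjusted p 0.0825) and the runs without shscr-ctr 2, shscr-ctr 3, shNumb-ctr 1 or shNumb-ctr 3 (adjusted p between 0.0539 and 0.0771). Mrps14, the homologue of a bacterial protein in the head of the small subunit, had 13.6, 13.7 and 12.5 FPKM in shNumb-ctr, against 11.5, 11.7 and 11.04 FPKM in shscr-ctr. Its log2 fold change was 0.20 (adjusted p 0.0260), and the call was lost without shscr-ctr 1, shscr-ctr 3, shNumb-ctr 1 or shNumb-ctr 2 (adjusted p between 0.0697 and 0.0829).

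Small subunit genes lower in shNumb-ctr numbered 5, all without overlap between groups. Mrps2, whose bacterial homologue is among the last proteins to join the small subunit, had 55.02, 53.9 and 55.4 FPKM in shNumb-ctr, against 60.7, 60.1 and 61.2 FPKM in shscr-ctr. Its log2 fold change of -0.14 (SE 0.0274, adjusted p 0.0118) was the one small subunit call that held in all 16 alternatives. Mrps27, a pentatricopeptide repeat protein that binds RNA, had 15.8, 16.2 and 16.4 FPKM in shNumb-ctr, against 19.0, 17.9 and 17.8 FPKM in shscr-ctr (log2 fold change -0.17, adjusted p 0.0265). Another gene, 6430562O15Rik, overlaps 24.2% of its exon bases, and the strand used in counting is not given. Mrps35, a mitochondria-specific protein of the head region, had 7.87, 8.39 and 8.11 FPKM in shNumb-ctr, against 9.73, 9.50 and 9.03 FPKM in shscr-ctr. The difference was -0.19 on the log2 scale (adjusted p 0.0292). Mrps31, also mitochondria-specific, had 10.1, 10.4 and 10.5 FPKM in shNumb-ctr, against 11.3, 11.9 and 12.2 FPKM in shscr-ctr (log2 fold change -0.17, adjusted p 0.0302). Mrps6, a homologue of a bacterial platform protein, had 44.4, 45.1 and 40.3 FPKM in shNumb-ctr, against 49.0, 47.8 and 49.1 FPKM in shscr-ctr (log2 fold change -0.17, adjusted p 0.0375). Calls of these last 4 genes were each lost in several alternatives, 7 of 16 for Mrps27, 6 for Mrps35, 7 for Mrps31 and 10 for Mrps6. Quantile normalization ended those of Mrps31 (adjusted p 0.0525) and Mrps6 (0.0557), and testing without a filter or with 1 prior variance ended that of Mrps6 (adjusted p 0.0689 and 0.0674). Leaving out libraries, Mrps27 lost its call without any library but shscr-ctr 2, Mrps31 without any but shscr-ctr 1 and Mrps6 without any but shNumb-ctr 2. Mrps35 lost it without shscr-ctr 1, shscr-ctr 2, shNumb-ctr 1 or shNumb-ctr 3. In those runs adjusted p reached at most 0.101, for Mrps6, and no called member changed sign in any alternative.

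**Figure D4:**
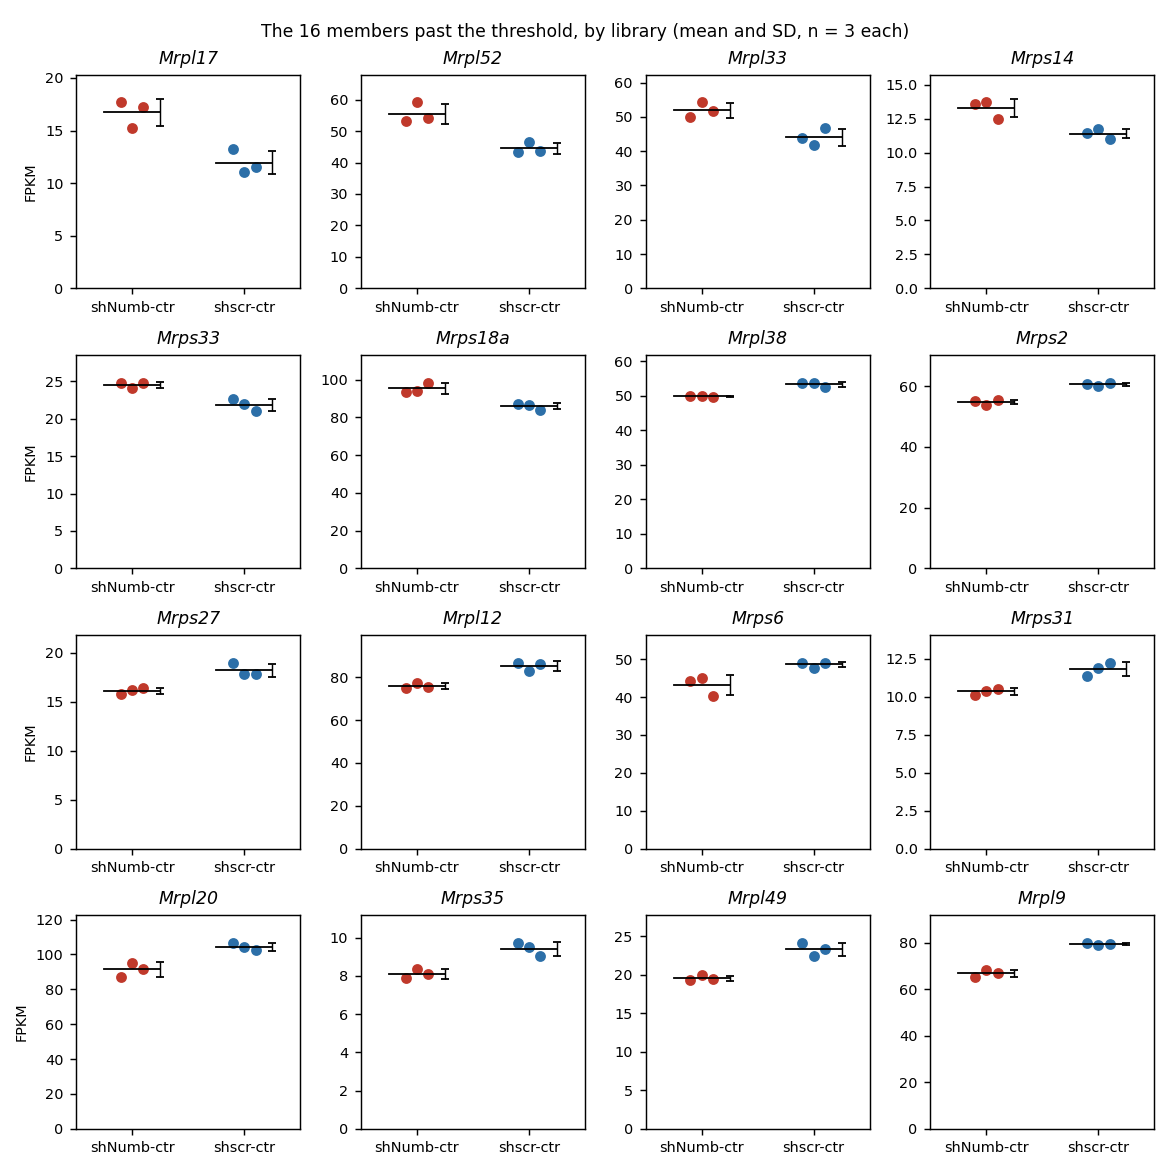
FPKM of the 16 called mitochondrial ribosomal protein genes in each library, shNumb-ctr left of shscr-ctr in each panel, with the mean as a line and the SD as a bar beside it (n = 3 each). In every panel the groups do not overlap, 6 with shNumb-ctr above and 10 with shNumb-ctr below.

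Grouped by descent, the 48 homologues of bacterial proteins held 4 called higher and 5 called lower (18.8%), with a median log2 fold change of -0.03. The 29 mitochondria-specific proteins held 2 called higher and 5 called lower (24.1%), with a median of -0.09. Of all tested genes, 18.8% were called. Whether these sets of members differ was not tested. By place in the large subunit, the 5 stalk proteins (Mrpl10, Mrpl11, Mrpl12, Mrpl53 and Mrpl54) all had negative log2 fold changes, from -0.17 to -0.02, of which only that of Mrpl12 was called. Negative values were also the more common over all tested genes, in 5947 of 10594. Mrpl53 is uncertain, since 77.6% of its windows occur in another gene. Of 8 proteins of the central protuberance, 5 had positive and 3 negative values, and Mrpl38 alone was called. Of 8 proteins around the exit tunnel, 4 had positive and 4 negative values, and Mrpl17 alone was called. When Mrps18a and Mrps30 were counted with the large subunit, as in the structures, and Mrps36, a protein now assigned to a metabolic enzyme complex, with neither, 4 of 51 large subunit genes were called higher and 5 lower, and 2 of 26 small subunit genes were called higher and 5 lower.

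The other 62 members were not called, and for nearly all of them the variation among these libraries set narrow limits on a change. In 73 of 78 members the 95% interval of the log2 fold change lay within 0.32 of 0, a change of 1.25-fold either way in FPKM + 1. In FPKM itself that limit is wider, most of all for low genes. The 5 outside were Mrpl17, Mrpl52, Mrpl33 and Mrpl49, all called, and Mrpl3, the one gene not called. Groups did not overlap in 10 members that missed the threshold, such as Mrps16 above, whose adjusted p was 0.180. Smallest among adjusted p that missed was that of Mrpl22, an exit tunnel protein, with a log2 fold change of -0.11 (adjusted p 0.0568). Its value is uncertain, since 32.4% of its windows occur in another gene. Median coefficients of variation over members were 3.64% in shNumb-ctr and 3.75% in shscr-ctr, so single libraries mostly kept close to their group.

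Mrpl3 was the exception to that. The gene, a homologue of a bacterial protein that reaches toward the peptide-bond-forming centre, had 19.9, 39.7 and 44.9 FPKM in shNumb-ctr, against 39.6, 42.1 and 40.3 FPKM in shscr-ctr. The first shNumb-ctr library lay at -0.96 on the log2 scale from its group's median, and no other member in any library lay over 0.3 from its group's median. Mrpl3 had a log2 fold change of -0.30 (SE 0.251, adjusted p 0.436), and without shNumb-ctr 1 the value was 0.053 (adjusted p 0.567). No direction can be read for this gene.

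**Figure D5:**
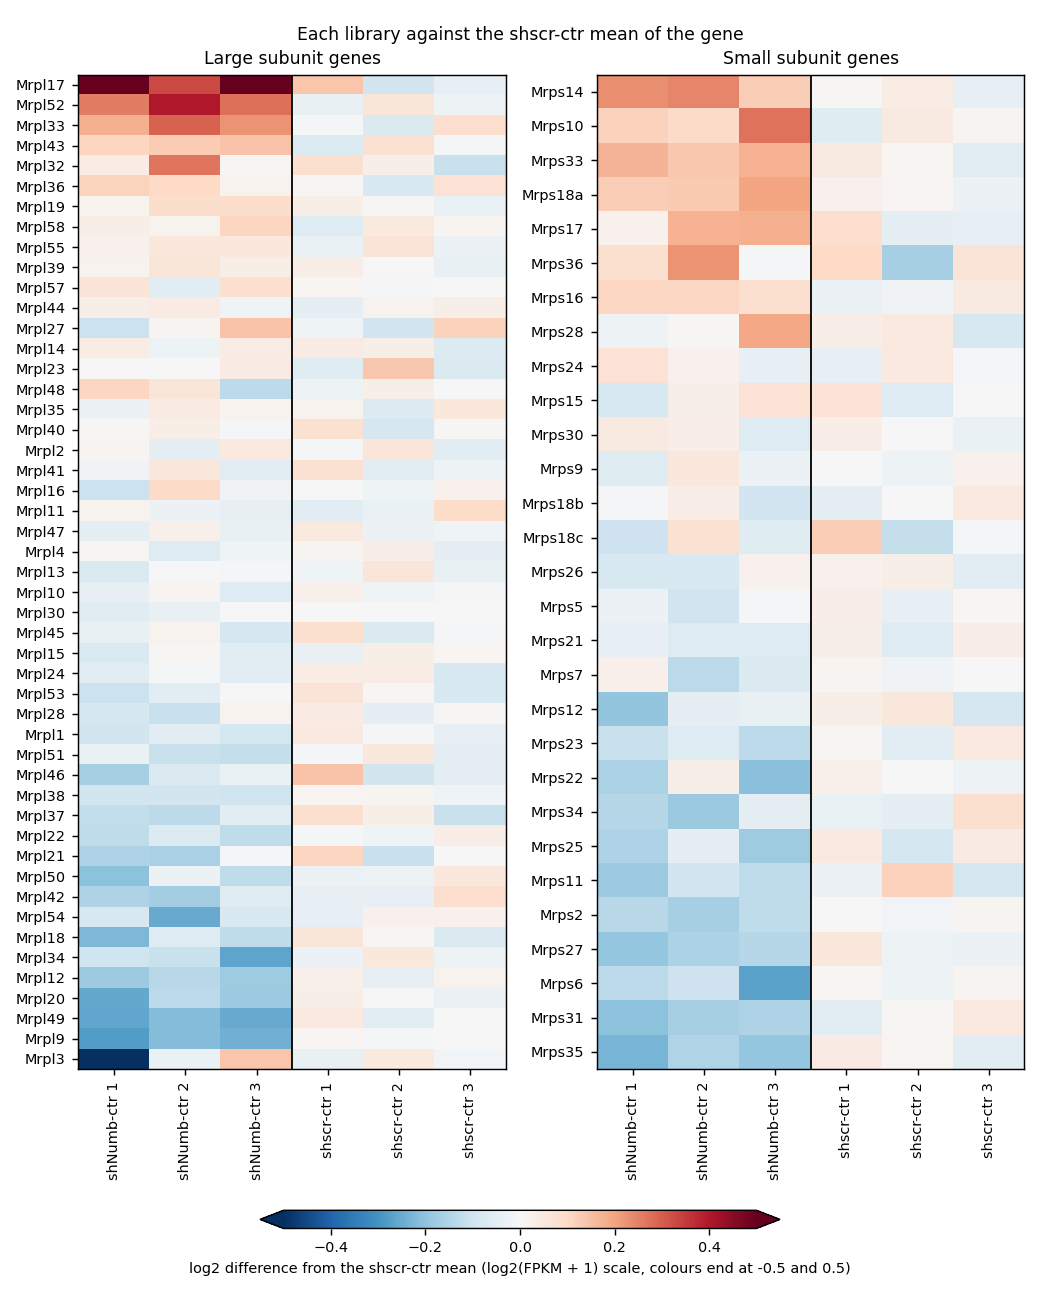
log2 difference of each library (columns, shNumb-ctr left of shscr-ctr) from the shscr-ctr mean of the gene, for each large and small subunit gene (rows, ordered by log2 fold change), with the colour scale ending at -0.5 and 0.5. Mrpl17, Mrpl52 and Mrpl33 are red in all shNumb-ctr libraries, Mrpl9, Mrpl49 and Mrpl20 are blue in all of them, and Mrpl3 is deep blue in the first alone.

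Many genes of this family start close to another gene that runs the other way. By GENCODE (GRCm38), 23 members had a protein-coding neighbour on the other strand starting within 1000 bases, 22 of these neighbours were tested, and 15 of the 22 pairs had log2 fold changes of the same sign. The share of same signs among other pairs of genes was not measured. In no pair were both genes called, but only 2 of these members and 2 of these neighbours were called at all. Mrpl49 starts 59 bases from Fau, which encodes a cytosolic ribosomal protein, and Fau had 1143 ± 29.1 FPKM in shNumb-ctr and 1121 ± 22.7 FPKM in shscr-ctr (log2 fold change 0.03, adjusted p 0.528). Mrps27 starts 81 bases from Ptcd2, a pentatricopeptide repeat gene, with 22.6 ± 1.44 FPKM in shNumb-ctr and 22.7 ± 0.879 FPKM in shscr-ctr (adjusted p 0.923). Thus in both pairs the ribosomal gene was called lower and its neighbour was not called. Elsewhere the neighbour alone was called lower: Ncapd2, a condensin subunit 100 bases from Mrpl51, with a log2 fold change of -0.24 (adjusted p 0.00574), and Ska3, a kinetochore protein 49 bases from Mrpl57, with -0.20 (adjusted p 0.0203). The differences within pairs were not tested, and sequence that the neighbours share with other genes was not measured.

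Proteins of the same ribosome with other symbols were read beside the family, and 1 of 5 was called (20%, against 18.8% of all tested genes). Ptcd3, a pentatricopeptide repeat protein of the small subunit near the messenger RNA entry, had 35.1, 34.3 and 33.1 FPKM in shNumb-ctr, against 40.1, 38.5 and 39.4 FPKM in shscr-ctr. The groups did not overlap, and its log2 fold change of -0.20 (adjusted p 0.00897) was called in all 16 alternatives. Dap3, a GTP-binding protein of the small subunit, had 74.2, 85.2 and 74.6 FPKM in shNumb-ctr, against 94.9, 89.1 and 85.1 FPKM in shscr-ctr. Its groups overlapped by a narrow margin and it missed the threshold (log2 fold change -0.20, adjusted p 0.0526), though it passed without shNumb-ctr 2 (adjusted p 0.0149). Gadd45gip1, at the exit tunnel, had a log2 fold change of -0.12 (adjusted p 0.0641) and is uncertain, since 38.8% of its windows occur in another gene. Chchd1 had 0.07 (adjusted p 0.350), and Aurkaip1, with the highest level of these proteins, had 172 ± 3.53 FPKM in shNumb-ctr and 172 ± 1.66 FPKM in shscr-ctr.

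Genes that build the mitochondrial ribosome were called in both directions as well, at a share near that of all tested genes. Of 27 tested assembly factors (Ybey was below the filter), 2 were called higher and 3 lower (18.5%, against 18.8% of all tested genes). Their median log2 fold change was -0.03. The GTPases Gtpbp10 and Mtg1, which act in large subunit assembly, were higher, by 0.35 (adjusted p 0.0277) and 0.18 (adjusted p 0.0388). Gtpbp10 is uncertain, since 30.0% of its windows occur in another gene, and it was low in all libraries, with 2.41, 2.499 and 2.53 FPKM in shNumb-ctr, against 1.46, 1.71 and 2.03 FPKM in shscr-ctr. Lower were Mettl17, needed for small subunit assembly, at -0.22 (adjusted p 0.0270), Mrm2, which methylates the large ribosomal RNA, at -0.23 (adjusted p 0.0297), and Rpusd4, a pseudouridine synthase acting on that RNA, at -0.13 (adjusted p 0.0464). All 5 of these calls were lost in at least 4 of the runs without 1 library, each of the 6 libraries among them, with adjusted p up to 0.142.

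Among 15 mitochondrial translation factors none was called higher and 2 lower (13.3%, against 18.8% of all tested genes). Pdf, the deformylase that trims the first residue of new mitochondrial proteins, had 5.79, 6.89 and 7.06 FPKM in shNumb-ctr, against 9.20, 7.91 and 8.75 FPKM in shscr-ctr (log2 fold change -0.35, adjusted p 0.0224). It is uncertain, since 96.0% of its windows occur in another gene. Tufm, the elongation factor that brings aminoacyl-tRNA to the ribosome, had 97.1 ± 3.32 FPKM in shNumb-ctr and 105 ± 2.40 FPKM in shscr-ctr (log2 fold change -0.12, adjusted p 0.0455), with 67.8% of windows shared. The call of Pdf was lost without shscr-ctr 1, shscr-ctr 3 or shNumb-ctr 1 (adjusted p up to 0.0759), and that of Tufm without any library but shNumb-ctr 3 (adjusted p up to 0.120).

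Messages that these ribosomes translate kept nearly the same level in both groups. Of the 13 protein-coding genes of mitochondrial DNA, 1 was called lower and none higher (7.69%). Of all tested genes 18.8% were called, and of those over 100 FPKM 34.9%. The median log2 fold change of the 13 genes was -0.02. mt-Nd2, a subunit of the first respiratory complex, had 833 ± 29.5 FPKM in shNumb-ctr and 935 ± 51.1 FPKM in shscr-ctr (log2 fold change -0.17, adjusted p 0.0359). That call was lost without any library but shscr-ctr 2 (adjusted p up to 0.115). Together the 13 genes made up 6.38%, 6.48% and 5.93% of all FPKM in shNumb-ctr, against 6.41%, 6.02% and 6.39% in shscr-ctr. The nuclear mitochondrial ribosomal protein genes made up 0.614%, 0.635% and 0.630% in shNumb-ctr, against 0.647%, 0.644% and 0.641% in shscr-ctr, which did not overlap. The nearest of these were 0.635% and 0.641%. Of all single tested genes, 39.9% did not overlap between groups either. Values of 7 of the 13 mitochondrial genes are uncertain (mt-Co1, mt-Co2, mt-Co3, mt-Atp6, mt-Nd3, mt-Nd4 and mt-Nd4l), since between 51.3% and 100% of their windows also occur in another gene, and these values enter the share of all FPKM. The mitochondrial ribosomal RNAs were not analysed here.

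Genes that act on mitochondrial DNA and its transcripts, and factors that act on transcription of nuclear genes for mitochondria, were read last. Of 16 genes of mitochondrial DNA maintenance and transcription, Lrpprc alone was called (6.25%, against 18.8% of all tested genes). Lrpprc, which stabilizes mitochondrial messenger RNAs, had 36.6, 39.4 and 35.9 FPKM in shNumb-ctr, against 46.4, 42.5 and 44.9 FPKM in shscr-ctr (log2 fold change -0.25, adjusted p 0.0106), and its call held in all 16 alternatives. Among 9 tested transcription factors and coactivators of mitochondrial genes, 1 was called higher and 2 lower (33.3%, against 18.8% of all tested genes). Ppargc1a and Ppara were listed at 0. Gabpa, the ETS factor whose letters are printed above, had a log2 fold change of -0.15 (adjusted p 0.0339) and the coactivator Pprc1 -0.13 (adjusted p 0.0328). Both calls were lost in most runs without 1 library, Gabpa in 5 (all but that without shscr-ctr 3, adjusted p up to 0.108) and Pprc1 in all 6 (adjusted p up to 0.102). Myc, which binds E-box letters, was low, with 1.43, 1.47 and 1.153 FPKM in shNumb-ctr, against 0.752, 0.587 and 0.434 FPKM in shscr-ctr (log2 fold change 0.56, adjusted p 0.0100). At this level the pseudocount of 1 shrinks the log2 fold change: the fold of means was 2.28, and a pseudocount of 0.1 gave 1.09 on the log2 scale (adjusted p 0.0132, with 0.00954 to 0.0302 over the 12 alternatives in which Myc passed the filter). Myc met the filter of at least 1 FPKM in at least 3 libraries only through shNumb-ctr. That it was tested, and counted in the 33.3%, rested on the group where it was high, so its call is given as a description only.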

How the data were processed

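RNA of BV2 cells was sequenced in 3 libraries labelled shNumb-ctr and 3 labelled shscr-ctr, after lysis in TRIzol, per the labels' protocols. The deposited values, 1 per gene and library, carry no unit in the file headers and were read as FPKM computed by the authors; TPM cannot be told apart from them. The submitters' processing notes name CASAVA and DESeq2 with no version or role, and for aligner, build and annotation the entry is not given in the sources used here. With depth unknown, intervals for counting error and limits of detection cannot be had.

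From the deposited FPKM, log2(value + 1) was computed, a pseudocount of 1 that understates changes of low genes. Genes with at least 1 FPKM in at least 3 libraries were tested (10594 of 22672; 7522 listed genes were at 0 in all 6 libraries). Groups were compared in limma 3.58.1 (R 4.3.3) with a mean-dependent prior variance, no covariates and two-sided tests, adjusted by Benjamini-Hochberg over all tested genes, at a threshold of 0.05; the fit was tested on simulated data. All 78 members passed the filter. Folds are ratios of group means; log2 fold changes are on the log2(FPKM + 1) scale.

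The text names every called member, the highest 3 and lowest 2 of each subunit by level, the mitochondrial ribosomal proteins with other symbols, up to 3 called genes per direction of each other list, and Numb. Mrpl3, Mrpl22, the stalk genes, Mrps30, Mrps36 and the neighbouring genes were named after their values were seen. The members and lists were chosen with earlier results of these data known. Shared sequence was measured with GENCODE M21 (GRCm38; Python 3.11.15) as windows of 50 bases, every 10 bases, found in other genes' transcripts, with over 20% called uncertain: 12 members shared that much and 10 had over 20% of exon bases overlapped by another gene. GENCODE and RefSeq coordinates are on GRCm38, which may not be the authors' build. Alternatives were 16 settings of the fit: other pseudocounts, filters, scalings, a GC and length correction, a replicate block, 1 prior variance, and each library left out.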

Additional observations from a re-analysis of the deposited data

How the results depend on the processing

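Of the 16 called members, 7 kept their call in all 16 alternatives (Mrpl9, Mrpl52, Mrpl49, Mrpl17, Mrpl12, Mrps2 and Mrpl20) and none changed sign. Over all tested genes 1989 were called; leaving out 1 library each time gave 964 to 1526, with small subunit calls of 2 to 6 and large subunit calls of 6 to 8 in place of 8 and 8, and median log2 fold changes of -0.041 to -0.020 (large) and -0.065 to -0.032 (small). The large subunit median was -0.0099 after median-of-ratios rescaling and -0.010 after quantile normalization, which placed the median of all tested genes at -0.0045 and -0.012; the share of calls that were higher was 43.2% as deposited, 53.0% and 50.8%. Correcting for GC content and length gave 12 large subunit calls of 49 and 7 small subunit calls of 29. The shares then lay close together, unlike the 16.3% and 27.6% as deposited. The count over all tested genes with that correction is not given here, so the rise cannot be read as particular to the family.

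The replicate number as a block gave 1079 calls over all tested genes, 7 in the large and 2 in the small subunit, and 5 in the small subunit with the GC and length correction. With the block, Mrps18a, Mrps33, Mrps27, Mrps35, Mrps31, Mrps6 and Mrpl38 were not called (adjusted p between 0.0554 and 0.119). Same-numbered libraries correlated in their deviations from group means by 0.0067, 0.012 and 0.047, and differently numbered ones by -0.088 to 0.066. The labels do not say whether the numbers pair samples, and correlations over so few libraries cannot decide it. Log2 fold changes near 0 changed sign in these settings. Aurkaip1 gave -0.032 with the GC and length correction, with or without the block, and from -0.014 (without shNumb-ctr 3) to 0.015 over the runs without 1 library, with -0.0061 without shscr-ctr 1. Mbp, an oligodendrocyte marker, gave 0.0023 with that correction, with or without the block, and from -0.089 to 0.035 (without shscr-ctr 3) over the runs without 1 library, with 0.0032 without shscr-ctr 2 and 0.0014 without shNumb-ctr 2. Mrps18b gave 0.0042 after quantile normalization and -0.054 to 0.011 (without shNumb-ctr 3) over such runs. Mrpl35 gave -0.024 without shscr-ctr 2 and -0.0066 without shNumb-ctr 2, Mrpl47 0.0051 without shscr-ctr 1, and Mrpl3 -0.51 (without shNumb-ctr 3) to 0.053 (without shNumb-ctr 1). The cause of these changes was not tested. Where a library is left out, its group keeps 2 libraries and the spread is pooled over both groups. Unknown depth limits what can be said of the lowest genes.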
